A study of Canis lupus familiaris with 12 samples.

Results

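A set of 7 genes of vessel lining and leukocyte adhesion was followed in lymph nodes of dogs with sinonasal cancer: *CDH5*, *PECAM1*, *KDR*, *SELE*, *ICAM2*, *VCAM1* and *ICAM1*. They were chosen by name, with earlier results of these data known. All 7 were found among the 780 endogenous genes of a canine immuno-oncology panel, which also carries 20 housekeeping genes. All dogs were client-owned and received stereotactic body radiation therapy (SBRT), a high dose given in few sessions, with 3 fractions of 10 Gy aimed at the tumor. For 3 of the dogs, aged 7 to 14 years, the submandibular and retropharyngeal nodes of both sides lay in the radiation field as well, which is elective nodal irradiation (ENI). In the other 3 dogs, aged 3 to 9 years, no node was targeted, and these nodes are called non-irradiated. Each dog gave 2 samples, 6 per group, and the labels do not state how the samples of a dog differ. The study placed the collection of nodes 2 weeks after SBRT. The labels give lymph node as the tissue, whereas the extraction protocol speaks of tumor tissue. Age differed between the groups along with the field, and its part cannot be told apart from that of nodal irradiation with 3 dogs per group.

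Blood vessels are lined by endothelial cells, which are held together by VE-cadherin, the product of *CDH5*, and by PECAM-1 (CD31), and which depend on vascular endothelial growth factor (VEGF) read by the receptor KDR (VEGFR2). Lymphocytes enter a node by rolling on selectins and then arresting through integrins, which grip the immunoglobulin-type ligands ICAM-1, ICAM-2 and VCAM-1 before the cell crosses between endothelial cells. *SELE*, *ICAM1* and *VCAM1* are known to be switched on in endothelium by inflammatory cytokines, while ICAM-2 and PECAM-1 are present on resting endothelium. Not all of these genes are confined to vessels: PECAM-1 and ICAM-2 are also found on leukocytes and platelets, ICAM-1 on B cells and dendritic cells, and VCAM-1 on reticular stroma, follicular dendritic cells and macrophages.

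Transcripts were counted with NanoString nCounter, in which barcoded probes are counted without amplification. Single-sample values were not used here. Each gene had 1 value per group in normalized counts, given below as the authors' value, and the standard deviation (SD) over the samples of that group. Depth per sample is therefore unknown, and whether single samples of the groups overlapped cannot be read from the table. Group values ranged from 7.55 to 212887 normalized counts over all probes, and those of the 7 genes from 47.6 to 1596. Ratios are given as log2 of the irradiated over the non-irradiated group value, and their median was -0.05 for endogenous and -0.03 for housekeeping genes. With limma, 28 of 780 genes (3.59%) passed at a Benjamini-Hochberg adjusted p under 0.05, of which 13 were higher and 15 (1.92%) lower in irradiated nodes. The number of lower genes changed with the setting, to 24 without moderation of variances and to 9 with the delta method. The probe of *CDH5* targets XM_546894.6 from base 1713, that of *PECAM1* XM_848326.1 from base 1355, that of *KDR* NM_001048024.1 from base 690 and that of *SELE* NM_001003310.2 from base 85. The probe of *ICAM2* targets XM_005624303.1 from base 399, that of *VCAM1* XM_005621302.3 from base 906 and that of *ICAM1* NM_001003291.1 from base 1408.

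To examine whether genes of endothelial identity differed with nodal irradiation, the junction genes and the VEGF receptor were compared first. *CDH5* fell in irradiated nodes. The authors' value was 47.6 (SD 8.14) normalized counts with nodal irradiation and 105 (SD 24.2) without it. The ranges of 1 SD around these values, 39.4 to 55.7 and 80.7 to 129 normalized counts, lay apart. The group value was 2.21-fold lower, a log2 ratio of -1.14 ± 0.18 (SE, limma) with a 95% interval from -1.52 to -0.76 and an adjusted p of 0.00209. Counted from the lowest ratio, *CDH5* ranked 10 of 780. It was the only member past the threshold. All SEs and p-values here are over samples, and because each dog gave 2 samples they are too small where samples of a dog resemble each other. In the assumed extreme that both samples of a dog were identical, the interval of *CDH5* ran from -1.91 to -0.37, with an unadjusted p of 0.00653 and an adjusted p of 0.727 (limma), and 0 genes of the panel passed, while 35 had an unadjusted p under 0.05.

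*PECAM1*, the other junction gene, differed far less. Its authors' value was 1352 (SD 60.3) normalized counts with and 1596 (SD 95.9) without nodal irradiation. Counted from the smallest SD relative to the group value, it ranked 11 of 780 in irradiated and 7 in non-irradiated nodes, and the 1 SD ranges of 1292 to 1412 and 1500 to 1692 normalized counts did not overlap. The group value was 1.18-fold lower in irradiated nodes (log2 ratio -0.24 ± 0.12 SE, adjusted p = 0.252 by limma). This call turned on how its small spread was treated. With the gene's own variance the SE was 0.04 and the adjusted p was 0.0156, and with separate variances per group the adjusted p was 0.0270. With limma, which draws each variance towards that of other genes, it did not pass. On the log2 scale the ratio of *CDH5* was 0.90 below that of *PECAM1*, a 1.87-fold steeper difference in group values. Whether the 2 ratios differ could not be tested, since the covariance of the genes over samples is not known.

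*KDR* was lower in irradiated nodes by group value but varied widely without irradiation. The authors' value was 164 (SD 23.5) normalized counts with and 273 (SD 153) without nodal irradiation. The 1 SD range of the non-irradiated group, 120 to 426 normalized counts, enclosed that of the irradiated group, 140 to 187. The log2 ratio was -0.74 ± 0.27 SE (1.67-fold, adjusted p = 0.126 by limma), with an interval from -1.32 to -0.16.

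**Figure D1:**
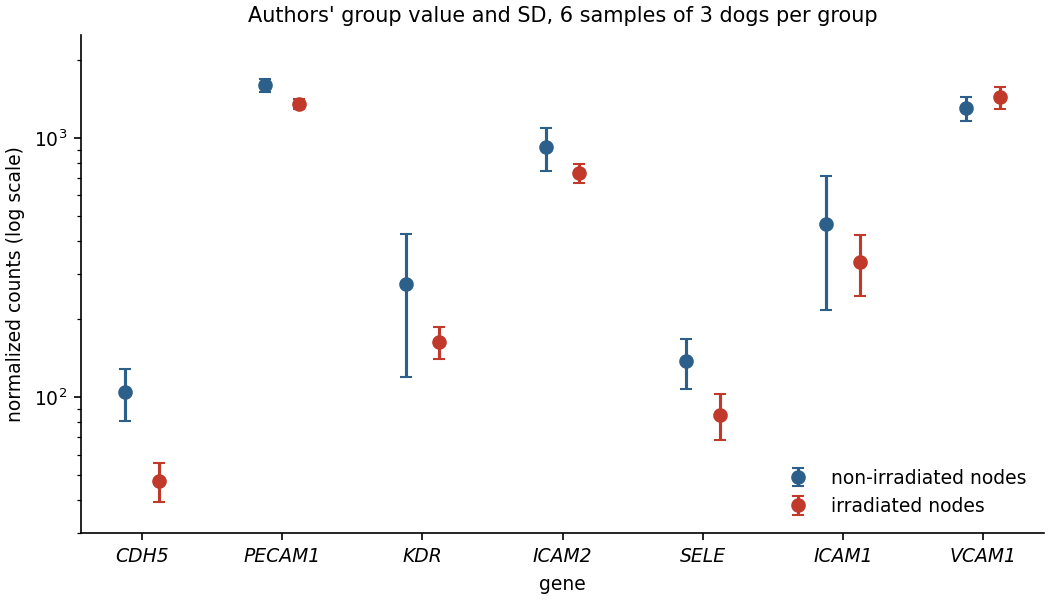
Authors' group values in normalized counts (log axis) for the 7 genes, in non-irradiated (blue) and irradiated (red) nodes; bars are the deposited SD over 6 samples of 3 dogs per group. The SD bars of *CDH5*, *PECAM1* and *SELE* lie apart, those of *KDR* and *ICAM1* are long in non-irradiated nodes, and *VCAM1* is the 1 gene with the higher value in irradiated nodes.

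The adhesion genes that leukocytes use were compared next. E-selectin (*SELE*), the cytokine-induced rolling receptor, had an authors' value of 85.8 (SD 17.6) normalized counts with and 138 (SD 30.4) without nodal irradiation. The 1 SD ranges, 68.1 to 103 and 107 to 168 normalized counts, were narrowly apart. Its log2 ratio of -0.68 ± 0.18 SE (1.61-fold lower, interval -1.08 to -0.29) had an adjusted p of 0.0518 by limma, just beyond the threshold. The p crossed that line under 3 settings, at 0.0471 with a mean-variance trend, 0.0454 without genes under 20 normalized counts and 0.0492 with 10 counts added to both group values.

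*ICAM2*, the ligand for the integrin LFA-1 on resting endothelium, had an authors' value of 733 (SD 60.4) normalized counts with and 921 (SD 173) without nodal irradiation. The 1 SD ranges met between 747 and 793 normalized counts. The log2 ratio was -0.33 ± 0.15 SE (1.26-fold lower, adjusted p = 0.220 by limma). *ICAM1*, the inducible ligand of the same integrin, had an authors' value of 333 (SD 87.3) in irradiated and 465 (SD 248) normalized counts in non-irradiated nodes. The non-irradiated 1 SD range of 216 to 713 normalized counts enclosed that of irradiated nodes, 246 to 421. The log2 ratio was -0.48 ± 0.28 SE with an adjusted p of 0.353 by limma. Its interval, -1.08 to 0.12, spanned 0.

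*VCAM1*, the ligand of the integrin VLA-4, was the only member with a higher group value in irradiated nodes. The authors' value was 1436 (SD 138) normalized counts with and 1304 (SD 141) without nodal irradiation, and the 1 SD ranges of 1298 to 1575 and 1163 to 1444 normalized counts overlapped for much of their length. The log2 ratio was 0.14 ± 0.13 SE (adjusted p = 0.580 by limma). The interval ran from -0.15 to 0.43 and so left out a decrease of the size seen for *CDH5*. Between the inducible genes, the log2 ratio of *VCAM1* was 0.62 above that of *ICAM1*, a difference that was not tested.

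Over the group, 6 of 7 members had a log2 ratio below 0, against 54.9% of all endogenous genes, and the median was -0.48 against -0.05. An unadjusted p under 0.05 with a lower value was reached by 4 members (*CDH5*, *SELE*, *KDR* and *ICAM2*), against 13.5% of the panel. The 1 SD ranges lay apart for 3 of the 7, against 8.59% of the panel. These counts describe genes chosen with results of these data known and carry no test. Centring on the housekeeping or on the endogenous median, which were -0.03 and -0.05, moved the ratios too little to change the direction of any member. RNA came from node tissue of mixed cells, and the part of the node sampled was not stated. Fewer endothelial cells, less RNA of these genes per cell, a change in other cells that carry some members and a difference in the part sampled cannot be told apart.

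**Figure D2:**
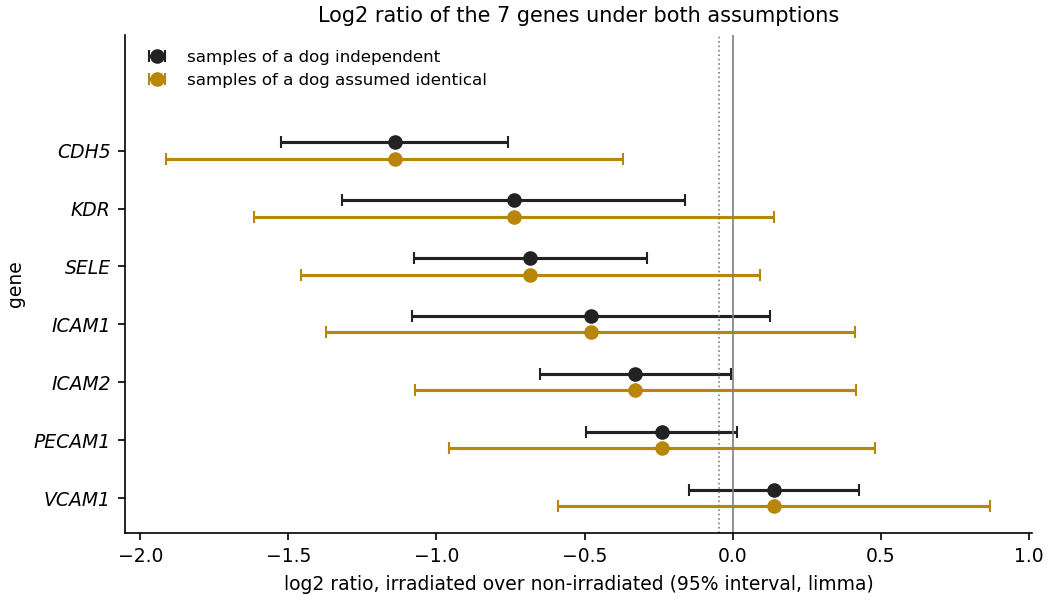
Log2 ratio (irradiated over non-irradiated) of the 7 genes with 95% limma intervals, taking the 2 samples of a dog as independent (black) or assuming them identical (gold); the dotted line is the median of the 780 endogenous genes. The *CDH5* interval stays below 0 under both, from -1.52 to -0.76 and from -1.91 to -0.37, while those of *SELE* and *KDR* reach above 0 when samples of a dog are assumed identical. The intervals are not adjusted for the 780 genes tested. With samples of a dog assumed identical, the adjusted p of *CDH5* was 0.727 (limma).

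The spread within each group was compared as well. Over all endogenous genes the median SD was 32.2% of the group value in non-irradiated and 22.9% in irradiated nodes. Relative to the group value, the SD was larger in non-irradiated nodes for all 7 members, against 65.4% of the panel. The contrast was widest for *KDR*, with an SD of 56.1% of the group value in non-irradiated and 14.4% in irradiated nodes, a 3.90-fold difference at rank 73 of 780. *ICAM2* followed with 18.8% and 8.24% and *ICAM1* with 53.4% and 26.2%. For *SELE* the 2 values were close, 22.1% and 20.5%, as they were for *VCAM1* (10.8% and 9.62%). *CDH5* had 23.0% and 17.1%. *PECAM1* had the smallest spread of the 7 in both groups, 6.01% and 4.46%. By this contrast *PECAM1*, *CDH5*, *VCAM1* and *SELE* ranked 374, 377, 459 and 480 of 780, so for these genes it was not unusual for the panel. The spread of a group mixes that between dogs with that between samples of a dog, and neither was available alone.

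**Figure D3:**
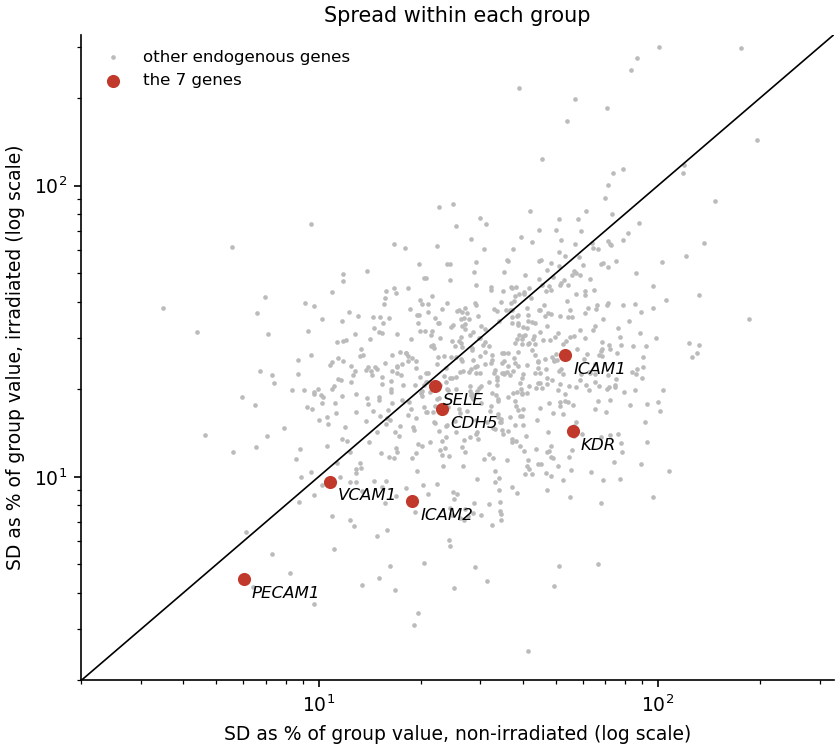
SD as a percentage of the group value in non-irradiated (x axis) and irradiated nodes (y axis), log axes, for the 7 genes (red) and the other endogenous genes (grey); the line marks equal spread. All 7 lie below the line, as do 65.4% of all endogenous genes, and *KDR* lies farthest below it (56.1% against 14.4%).

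Further endothelial genes on the panel were taken from a list of 33, of which 5 were measured. All 5 were lower by group value, against 54.9% of the panel, with a median log2 ratio of -0.56. By limma 0 passed, and 4 were lower at an unadjusted p under 0.05, against 13.5% of the panel. *CD34*, a surface sialomucin of endothelium and of blood progenitors, had an authors' value of 83.9 (SD 31.5) in irradiated and 151 (SD 54.2) normalized counts in non-irradiated nodes (log2 ratio -0.85 ± 0.26 SE, adjusted p = 0.0778). *MCAM*, an adhesion molecule of endothelium and pericytes, had 87.0 (SD 21.8) and 136 (SD 26.4) normalized counts (-0.65 ± 0.19 SE, adjusted p = 0.0622). *JAM3*, a junctional adhesion molecule, had 95.4 (SD 17.99) and 140 (SD 8.37) normalized counts (-0.56 ± 0.15 SE, adjusted p = 0.0518), and it passed under 5 of the 11 alternative settings. The remaining genes of the list, *CD99* at -0.52 ± 0.18 SE (adjusted p = 0.107) and the anticoagulant receptor *THBD* at -0.19 ± 0.35 SE (adjusted p = 0.811), were named after their values were seen. The 4 defining endothelial markers that were measured (*CDH5*, *PECAM1*, *KDR* and *CD34*) had group values from 47.6 to 1596 normalized counts. The lowest group value of any probe was 7.55, so a value above 0 does not by itself show that endothelium was present.

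The ligands and the co-receptor of KDR were compared with the same test. Of 24 listed angiogenic ligands, receptors and regulators 5 were measured, 0 passed by limma and 1 was lower at an unadjusted p under 0.05, against 13.5% of the panel. The list's median log2 ratio, -0.03, was that of *NOTCH1*, with *HIF1A* next to it at -0.03 (both named after their values were seen), and the VEGF genes lay on either side of it. *VEGFA*, the main KDR ligand, had an authors' value of 130 (SD 22.0) in irradiated and 123 (SD 33.8) normalized counts in non-irradiated nodes (log2 ratio 0.08 ± 0.19 SE, adjusted p = 0.869). *VEGFC*, which acts mainly on lymphatic endothelium, had -0.37 ± 0.21 SE on the log2 scale (adjusted p = 0.335). The KDR co-receptor *NRP1* was lower by group value, at 186 (SD 42.7) against 275 (SD 71.9) normalized counts (-0.56 ± 0.20 SE, adjusted p = 0.116).

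On the leukocyte side, 12 of 16 listed partners were measured. They were evenly split, 6 higher and 6 lower, with a median log2 ratio of -0.01. By limma 0 passed, and *ITGAV* alone had an unadjusted p under 0.05, being lower, against 13.5% of the panel. For *ITGAL*, the alpha chain of LFA-1 that binds the ICAMs, the log2 ratio was -0.38 ± 0.26 SE (adjusted p = 0.435), and its beta chain *ITGB2* had 0.15 ± 0.26 SE (adjusted p = 0.795). *ITGAM* and *ITGAX*, the alpha chains that pair with the same beta chain on myeloid cells, had 0.02 ± 0.19 and -0.22 ± 0.19 SE (adjusted p = 0.963 and 0.538). For VLA-4, the receptor of VCAM-1, the alpha chain *ITGA4* had -0.04 ± 0.16 SE (adjusted p = 0.913), slightly above 0 when centred on the endogenous median, and the beta chain *ITGB1* had 0.29 ± 0.15 SE (adjusted p = 0.266). The selectin ligands *SELPLG* and *CD44* had -0.35 ± 0.18 and -0.34 ± 0.30 SE (adjusted p = 0.264 and 0.538). Partners described for human PECAM-1 were the ectoenzyme *CD38*, at 0.38 ± 0.22 SE (adjusted p = 0.340), and the integrin chains *ITGAV*, at -0.48 ± 0.14 SE (adjusted p = 0.0622), and *ITGB3*, at 0.09 ± 0.18 SE (adjusted p = 0.830). *ITGAV* passed under 3 of the 11 alternatives.

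Other ICAM genes of the panel, named after their values were seen, lay on the other side of 0 from *ICAM1* and *ICAM2*. *ICAM3*, which in humans is a leukocyte ligand of LFA-1, had an authors' value of 677 (SD 74.8) in irradiated and 459 (SD 203) normalized counts in non-irradiated nodes (log2 ratio 0.56 ± 0.23 SE, adjusted p = 0.175 by limma). *ICAM4*, known from red blood cells, had 0.21 ± 0.24 SE (adjusted p = 0.671). The difference among ICAM genes was not tested.

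Because *SELE*, *ICAM1* and *VCAM1* respond to inflammatory cytokines, the cytokines, their receptors and NF-kappaB genes were listed together, and 21 of 22 were measured. Of these 15 were lower and 6 higher (median log2 ratio -0.19), 0 passed by limma and 3 were lower at an unadjusted p under 0.05, a share near the 13.5% of the panel. The genes with the largest ratios were the tumor necrosis factor receptor *TNFRSF1A* (-0.55 ± 0.18 SE, adjusted p = 0.0865), the NF-kappaB subunit *NFKB1* (-0.50 ± 0.23 SE, adjusted p = 0.220) and its partner *RELA* (-0.46 ± 0.15 SE, adjusted p = 0.0825). The other 18 had log2 ratios no larger in size than that of *RELA*. The inducing cytokines themselves, named after their values were seen, gave ratios on both sides of 0 and 0 of them passed by limma: *TNF* had 0.09 ± 0.25, *IL1A* 0.08 ± 0.25, *IL1B* 0.28 ± 0.38 and *IFNG* 0.27 ± 0.35 SE, while *LTA* had -0.03 ± 0.17 (above 0 when centred on the endogenous median), *LTB* -0.31 ± 0.21, *IL4* -0.12 ± 0.35 and *IL13* -0.35 ± 0.21 SE, with adjusted p-values from 0.369 to 0.954.

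Markers of other cells in the node were compared as well. Over the whole panel 54.9% of genes were lower and 352 of 780 were higher. By limma 3.59% of the panel passed, and 1.92% passed as lower. Of 11 measured stromal markers 7 were lower and 3 fell by limma: *PDGFRA* (-1.67 ± 0.17 SE, adjusted p = 7.57e-05) and *PDGFRB* (-0.92 ± 0.18 SE, adjusted p = 0.0120), growth factor receptors of mesenchymal cells and pericytes, and *CXCL12* (-1.34 ± 0.14 SE, adjusted p = 7.57e-05), a chemokine of reticular stroma. The other 4 stromal markers, named after their values were seen, were higher by group value. These were *PDPN* (0.43 ± 0.24 SE), *COL1A1* (0.24 ± 0.33 SE), *COL3A1* (0.03 ± 0.27 SE) and *CCL19* (0.02 ± 0.28 SE). Their adjusted p-values by limma ran from 0.326 to 0.983. The summed authors' values of the stromal list were 11724 normalized counts with and 16587 without nodal irradiation. Of 9 T cell markers 8 were lower (sums 10969 and 15070), of 8 macrophage markers 6 were lower (3518 and 5757), and of 7 B cell markers 6 were higher (9222 and 8040), with 0 past the threshold by limma in each of these 3 lists. Of 4 follicular dendritic cell markers 3 were higher (sums 27063 and 20698) and of 3 platelet markers 2 were higher (92.7 and 90.2), again with 0 past the threshold. Of 5 epithelial markers 4 were higher (sums 553 and 503), and 1, *KRT18*, passed by limma. Each sum adds probes of unlike signal, and much of the difference in some came from 1 gene: in the follicular dendritic cell sum from *CXCL13* (17547 with and 9724 without nodal irradiation), the stromal sum from *CXCL12* (1882 and 4767) and the macrophage sum from *MARCO* (1109 with an SD of 2197, and 2272). Since no probe of the panel had a group value below 7.55, a value above 0 does not by itself show that a cell type was present. The part of these markers in the ratios of the members was not tested.

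**Figure D4:**
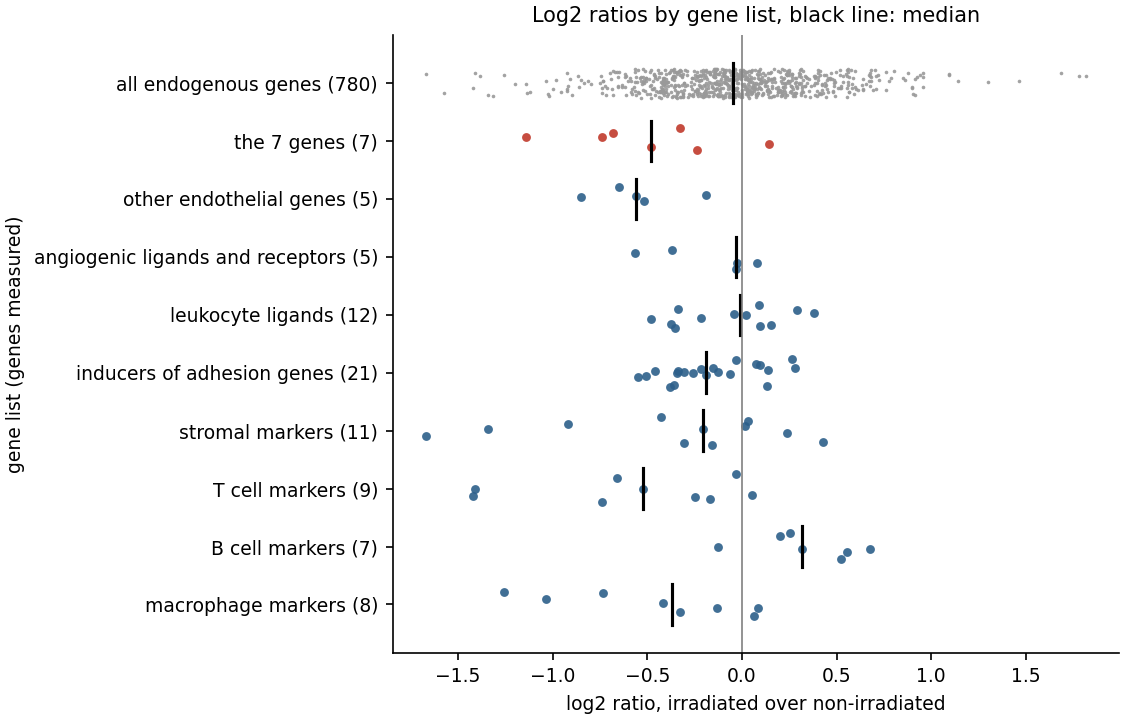
Log2 ratio (irradiated over non-irradiated) of each gene (points) by list, with the list median as a black line and all 780 endogenous genes in grey. The medians of the 7 genes (-0.48) and of 5 further endothelial genes (-0.56) lie left of the panel median (-0.05). So do those of T cell (-0.53), macrophage (-0.37) and stromal markers (-0.20) and of inducers (-0.19), so a median left of the panel is not particular to endothelial genes. The B cell median (0.32) lies right of it, and those of angiogenic genes (-0.03, the value of *NOTCH1*) and leukocyte partners (-0.01) lie near it.

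With 2 group values, likeness to a member can only mean a similar ratio at a similar level. Among the 381 genes within 4-fold of the level of *CDH5*, 0 had a log2 ratio within 0.1 of it. The nearest were *SIGLEC1* (-1.26), a receptor of sinus macrophages, the chemokine *CCL24* (-1.02) and the prostaglandin synthase *PTGS2* (-0.997). By the same measure 15 of 451 genes lay within 0.1 of *KDR*, with the chemokine *CCL2*, the sensor *TLR3* and the integrin chain *ITGA1* nearest (-0.73 to -0.75). Within 0.1 of *SELE* were 17 of 417, with *BCR*, *SPRY2* and *GATA3* nearest (-0.69 to -0.67). The other members had more common ratios, with 38 of 275 genes within 0.1 for *PECAM1*, 57 of 372 for *ICAM2* (nearest *PIK3R1*, *MYC* and *NFATC2*), 63 of 444 for *ICAM1* (*ITGAV*, *CDH1* and *NFATC3*) and 41 of 292 for *VCAM1* (*IKBKB*, *CIITA* and *BLNK*).

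Some members are neighbours in the dog genome, in the order of protein-coding genes of the RefSeq annotation of a German Shepherd. *PECAM1* and *ICAM2* are separated by 2 genes, and their log2 ratios were -0.24 and -0.33. *KDR* lies directly beside *KIT*, the stem cell factor receptor, with *PDGFRA* next after it, and the log2 ratios of these receptor genes were -0.74, -0.42 ± 0.13 SE (adjusted p = 0.0797) and -1.67.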

How the data were processed

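RNA was extracted with the RNeasy Plus Mini kit and measured on an nCounter FLEX system with the Canine IO 360 panel, and the authors analysed the counts in nSolver; its version, background and scaling were not given in the sources used here. The signal of each probe was deposited as 1 normalized count per group. The authors deposited its SD as well, entered here as a score. The SD exceeded 2.45 times the group value, the most that 6 values can reach around an arithmetic mean, in 4 cases (up to 3.00 times), so the group value was taken as a geometric mean. Housekeeping log2 ratios averaged -2.62e-05, which shows scaling to these genes. The file also holds the authors' fold changes, limits, p-values and adjusted p-values, and none of these were used.

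Each SD was converted to the log2 scale as for a log-normal variable, with 6 samples per group from the labels, and the variances were moderated in limma 3.58.1 (R 4.3.3; 10 residual and 4.09 prior degrees of freedom). P-values were adjusted by Benjamini-Hochberg over 780 endogenous genes. The conversion is approximate. For samples of a dog assumed identical, unmoderated SEs are 1.58 times as large; this is a bound, not a fit to dogs. Named genes were the members, list genes past the threshold or else the 3 with the largest ratios at 20 normalized counts or more, and direct binding partners. The members and lists were chosen with earlier results of these data known. Figures used Python 3.11.15 and matplotlib 3.10.9. Some genes that the naming rule would give are not reported here.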

Additional observations from a re-analysis of the deposited data

How the results depend on the processing

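Against 28 genes past the threshold, the delta method (SD over group value) gave 16, Benjamini-Yekutieli adjustment 7 and samples of a dog assumed identical 0; the other 8 alternatives gave 25 to 38. Calls of lower genes, 15 against 13 higher, became 24 against 11 without moderation, 25 against 13 with the trend and with the minimum level, 24 against 13 with the added counts, 9 against 7 with the delta method and 5 against 2 with Benjamini-Yekutieli; without moderation 20 and with separate variances 17 of the 28 genes were shared. The log2 ratio of *CDH5*, -1.14, became -0.997 with 10 counts added, and -1.11 and -1.09 when centred on the housekeeping and endogenous median. This ratio passed under all alternatives but that of identical samples, with adjusted p-values from 0.00173 to 0.727. That of *PECAM1*, -0.24, passed without moderation (adjusted p = 0.0156) and with separate variances (0.0270), where its own small variance was used, and that of *SELE* passed at -0.68 with a mean-variance trend and with a minimum of 20 normalized counts, and at -0.62 with 10 counts added. *KDR*, *ICAM2*, *ICAM1* and *VCAM1* passed under none, with lowest adjusted p-values of 0.115, 0.142, 0.334 and 0.394. Of the further endothelial genes 1, *JAM3*, passed without moderation, with the trend, the minimum level, the added counts and the housekeeping genes included. Of the leukocyte partners 1, *ITGAV*, passed without moderation, with separate variances and with the added counts, and of the inducers 1, *RELA*, passed without moderation. The cause was not tested except for *PECAM1*. Ratios near 0 crossed it when centred: *ITGA4* (to 0.0034), *NOTCH1* (to 0.014) and *LTA* (to 0.016) on the endogenous median, and *HIF1A* on the housekeeping (0.0026) and endogenous median (0.021). No paired analysis was possible because each group holds dogs of its own and single-sample values were not used, so no sample or dog was left out or used as a block.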
